A study of Mus musculus with 4 samples.

Results

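The genes of glucose uptake and glycolysis described here are 10 genes, taken by symbol from the deposited table of read counts: the glucose transporter genes Slc2a1 and Slc2a3 and the enzyme genes Hk2, Pfkp, Aldoa, Gapdh, Pgk1, Eno1, Pkm and Ldha. In mm10 (GENCODE M21) all 10 are protein-coding. Aldoa has 2 entries there, and its type and position are those of the entry that starts first. The transporter genes lie at chr4:119108711-119137983 (Slc2a1) and chr6:122727809-122801640 (Slc2a3), and the enzyme genes at chr6:82725025-82774454 (Hk2), chr13:6579768-6648777 (Pfkp), chr7:126795234-126800751 (Aldoa), chr6:125161715-125166467 (Gapdh), chrX:106187100-106203699 (Pgk1), chr4:150236721-150248879 (Eno1), chr9:59656368-59679375 (Pkm) and chr7:46841475-46855627 (Ldha). All 10 were among the 25239 symbols of the table, and all 10 passed the filter on low counts that left 14610 genes for testing. The cells came from hindlimbs of FVB mouse embryos at embryonic day 11.5, with the genotype given as wild-type apart from a reporter, H11 hsp68-hZRS(404G>A)-mCherry. In this reporter a human copy of the ZRS, a long-range limb enhancer, carries the 404G>A base change and drives the red fluorescent protein mCherry from the H11 locus through the minimal hsp68 promoter. The comparison is between mCherry-positive cells of the anterior hindlimb and mCherry-negative cells of its central part, with 2 libraries of total RNA from each population. The reporter was present in both populations, so the groups differed in limb position and in reporter state at once, and the contributions of these to a difference cannot be told apart. The labels do not say whether the libraries of a population came from separate embryos or pools, so the p-values measure the spread between these libraries, which may be technical.

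Glycolysis splits glucose into pyruvate in the cytosol and yields ATP and NADH on the way. Glucose enters through facilitative transporters of the GLUT family, is trapped by phosphorylation by a hexokinase, is committed to the pathway by phosphofructokinase and is cleaved by aldolase. The later enzymes recover ATP, and lactate dehydrogenase turns pyruvate into lactate, which restores the NAD+ that the step of glyceraldehyde-3-phosphate dehydrogenase uses. Most steps have several isozymes encoded by separate genes. Mouse embryos of early organogenesis rely heavily on glycolysis with release of lactate, and in the tail bud glycolysis is known to be graded along the body axis.

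Library totals were 30080925 to 33257383 counts, and the 10 genes together took 0.795% and 0.759% of the anterior counts and 0.624% and 0.639% of the central counts. Levels are given as CPM, counts per 1000000 counts after scaling of the libraries by the TMM method, and on that scale the 10 genes summed to 7923 and 7779 CPM in anterior cells and to 6154 and 6347 in central cells. The 8 limb mesenchyme markers checked were present in both populations, with summed levels of 2927 to 2935 CPM in anterior cells and 2672 to 2802 in central cells, 4 of them called higher and 1 lower. Red blood cell markers differed far more: 8 of 8 tested were called higher in anterior cells, with sums of 3294 and 8400 CPM against 5.97 and 9.48, and the listed globin genes Hba-a1 and Hbb-bt were at 0 in every library. Of 6 white cell markers 3 were higher in anterior cells, at sums of 13.5 to 17.9 CPM against 7.32 to 7.34, and 1 was called without anterior replicate 1 or without central replicate 1. Markers of muscle precursors (7 of 7 lower in anterior cells, sums of 2.35 to 4.17 against 142 to 143 CPM), ectoderm (9 of 10 lower, 10.1 to 10.4 against 56.8 to 190), endothelium (6 of 10 lower, 15.3 to 20.5 against 46.2 to 51.2) and cartilage (5 of 7 tested lower, 382 to 510 against 1295 to 1643) were depleted in the anterior libraries, and the muscle genes Myog and Pax7 were at 0 there. With limma-voom 4 of the ectoderm markers were called, and without central replicate 2 the number of cartilage markers called was 8 of 9 listed. These counts of markers stand beside 22.9% of all tested genes called in either direction. In such bulk samples, fewer cells of a type and less RNA per cell cannot be told apart.

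Messenger RNA of 5 of the 10 genes was higher in anterior than in central cells, and 0 were lower by edgeR, DESeq2, limma-voom or an unadjusted p-value under 0.05. The genes that rose were Ldha and Hk2, by about 1.6-fold (1.58 and 1.60), and Pkm, Eno1 and Aldoa, by 1.25-fold to 1.30-fold. These calls are edgeR quasi-likelihood tests with Benjamini-Hochberg adjustment over all 14610 genes at a threshold of 0.05. By that threshold 22.9% of all tested genes were called, 10.7% higher and 12.3% lower in anterior cells. The log2 fold change (anterior over central) was above 0 for 10 of 10 genes, against 48.8% of all tested genes, although that of Slc2a1 fell below 0 when libraries were scaled by total counts alone or by upper-quartile factors. The median over the 10 genes was 0.33, and over all tested genes it was -0.0087. For 8 of the 10 genes both anterior libraries lay above both central ones, which held for 30.8% of all tested genes, and 63.5% of all tested genes showed no overlap in one direction or the other. The exceptions were the transporters Slc2a1 and Slc2a3. Each of the 5 calls held under all 14 alternative analyses, including those that left out any single library.

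**Figure D1:**
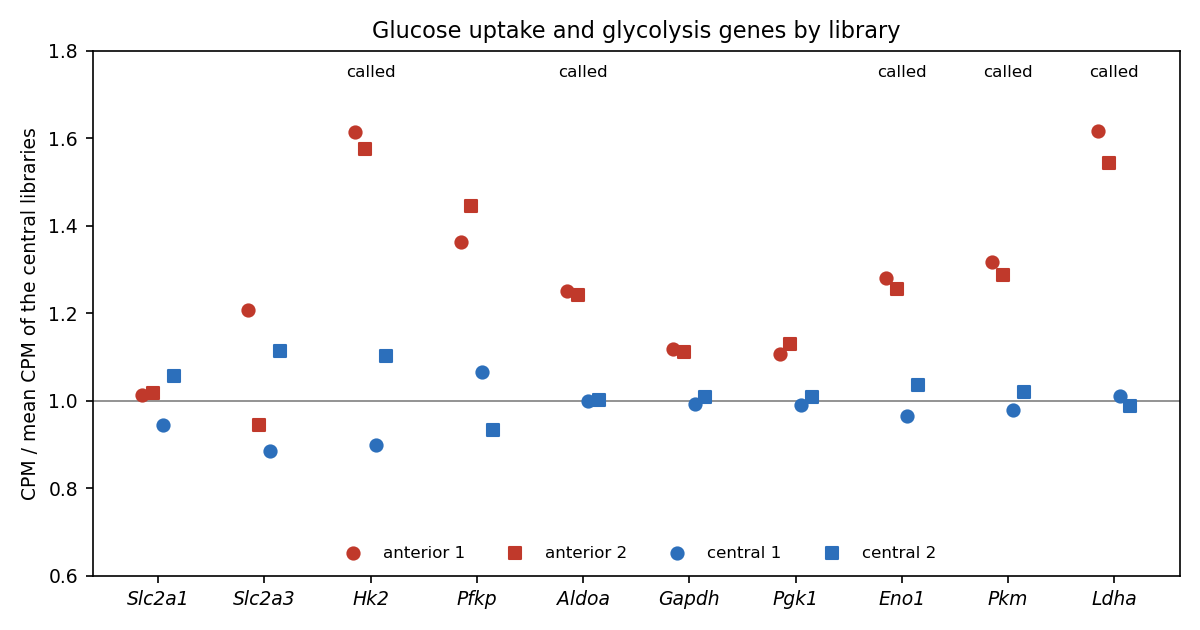
Level of each of the 10 genes in each of the 4 libraries, as CPM divided by the gene's mean CPM in the central libraries (vertical axis, linear, starting above 0); red points are anterior and blue points central libraries, and "called" marks an edgeR adjusted p-value under 0.05. The red and blue points are separate for 8 genes and overlap for Slc2a1 and Slc2a3.

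Neither Slc2a1 nor Slc2a3 differed beyond the spread between libraries. Slc2a1 encodes GLUT1, the widespread basal glucose carrier, and measured 74.4 and 74.7 CPM in anterior cells and 69.4 and 77.5 in central cells. The anterior values lay inside the central range, and the log2 fold change was 0.02 ± 0.08 (SE), at an edgeR adjusted p-value of 0.885. Slc2a3 encodes GLUT3, a high-affinity carrier, and measured 49.7 and 38.9 CPM against 36.4 and 45.8. Here each population held a high and a low library, and the log2 fold change was 0.11 ± 0.14 (SE), at an edgeR adjusted p-value of 0.645. Slc2a1 made up 60.0% and 65.8% of the counts of these transporters in anterior cells and 65.6% and 62.8% in central cells, so the share overlapped as well (exact permutation test, two-sided, p = 1, n = 2 each). A further 11 genes of the Slc2a and Slc5a transporter families were listed by symbol, whatever sugar or other substrate they carry. Of these, 8 were tested, and 0 were called by edgeR, 0 by DESeq2, 0 by limma-voom and 0 at an unadjusted p-value under 0.05. Their median log2 fold change was -0.13. The libraries of the populations did not overlap for 4 of the 8, a share below the 63.5% of all tested genes without overlap. Among those 4, Slc2a5 lay higher in anterior cells, and Slc2a10, Slc2a12 and Slc2a13 lay lower. Slc2a12 measured 0.72 and 0.89 CPM in anterior cells and 1.82 and 1.36 in central cells, and Slc2a13 measured 3.06 and 2.28 against 3.96 and 4.08 (edgeR adjusted p-values 0.161 and 0.193). Without anterior replicate 1, the intracellular carrier gene Slc2a10 was called lower (edgeR adjusted p-value 0.0352); with all libraries it measured 4.41 and 2.42 CPM against 6.01 and 5.07.

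Hk2 rose by 1.60-fold. It encodes the inducible hexokinase that binds to mitochondria and phosphorylates glucose after entry. It measured 96.9 and 94.6 CPM in anterior cells and 53.9 and 66.1 in central cells, so that the anterior libraries were close together and far above either central one. The means were 95.8 ± 1.65 and 60.0 ± 8.63 CPM (SD, n = 2 each), and the log2 fold change was 0.67 ± 0.10 (SE), at an edgeR adjusted p-value of 0.00192. Hk1, the constitutive hexokinase, leaned the other way without passing the test, at 50.7 and 52.6 CPM against 60.6 and 58.1 (log2 fold change -0.20 ± 0.08, edgeR adjusted p-value 0.111). As a result, Hk2 took 65.7% (95% exact binomial interval 64.3 to 67.0) and 64.3% (62.8 to 65.7) of the joint Hk2 and Hk1 counts in the anterior libraries, against 47.1% (45.4 to 48.8) and 53.2% (51.7 to 54.8) in the central ones. Such intervals cover counting error alone and treat each count as independent, whereas reads that carry no molecular identifier are not independent molecules. Small counts were mostly even, as when both mates of a pair are counted, and in that case the intervals are too narrow. The exact permutation test of the share gave p = 0.333, two-sided, which is the smallest value that 2 libraries against 2 can give. Hkdc1, a hexokinase-like gene at low level, had 148 and 72 counts against 12 and 14 and was called higher (edgeR adjusted p-value 0.00214).

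At the phosphofructokinase step, the member was the least abundant of the isozymes. Pfkp, the platelet-type subunit, measured 6.72 and 7.12 CPM in anterior cells and 5.26 and 4.60 in central cells. The populations did not overlap, but the log2 fold change of 0.49 ± 0.22 (SE) had an edgeR adjusted p-value of 0.147. The Pfkp gene, on the minus strand, shares 748 bases at its 3′ end with Pitrm1, on the opposite strand. Whether the counting used strand is not given in the sources used here, so reads of the shared stretch may belong to either gene. Pitrm1 measured 220 and 228 CPM against 219 and 208 and did not pass the test (edgeR adjusted p-value 0.499). Pfkl, the liver-type subunit, was called higher at 274 and 264 CPM against 216 and 225 (log2 fold change 0.28 ± 0.06, edgeR adjusted p-value 0.0119), a call that was lost without anterior replicate 1 (0.115) or anterior replicate 2 (0.0612). Pfkm, the muscle-type subunit, measured 72.6 and 77.3 CPM against 80.5 and 77.4, with a gap between the closest libraries far smaller than the spread within either population, and did not pass the test (edgeR adjusted p-value 0.538).

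Aldoa rose with very small spread within each population. It encodes aldolase A, which cleaves fructose-1,6-bisphosphate, and measured 659 and 654 CPM in anterior cells and 526 and 527 in central cells. The log2 fold change was 0.32 ± 0.06 (SE) and the edgeR adjusted p-value 0.00578, which ranged from 5.89e-06 to 0.0458 over the alternatives. Tpi1, the triose phosphate isomerase gene that follows aldolase, was called higher at 410 and 385 CPM against 353 and 327 (edgeR adjusted p-value 0.0452). That call was lost under 6 of the 14 alternatives, among them the omission of anterior replicate 1 (0.299), anterior replicate 2 (0.112) or central replicate 2 (0.0651). Gpi1, the glucose-6-phosphate isomerase gene, measured 297 and 281 CPM against 273 and 267 without passing the test (edgeR adjusted p-value 0.309).

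Gapdh and Pgk1, which encode the consecutive enzymes that oxidize the triose phosphate and recover the first ATP, lay higher in anterior cells by little. Gapdh measured 1941 and 1931 CPM in anterior cells and 1724 and 1750 in central cells, a ratio of 1.11. The libraries of the populations did not overlap, yet the edgeR adjusted p-value was 0.0907 (log2 fold change 0.16 ± 0.06, SE). The DESeq2 Wald test did call Gapdh (adjusted p-value 0.0347). Pgk1, on chromosome X, measured 444 and 453 CPM against 397 and 405, and its log2 fold change of 0.16 ± 0.06 (SE) had an edgeR adjusted p-value of 0.0862. Without central replicate 2 it passed the threshold (0.0493).

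Both enzymes between phosphoglycerate and phosphoenolpyruvate had their main gene higher in anterior cells. Pgam1, the main phosphoglycerate mutase gene, measured 204 and 210 CPM against 153 and 166 (log2 fold change 0.37 ± 0.07, edgeR adjusted p-value 0.00484). Eno1, which encodes alpha-enolase, measured 1350 and 1322 CPM in anterior cells and 1017 and 1091 in central cells. Its log2 fold change was 0.34 ± 0.06 (SE), at an edgeR adjusted p-value of 0.00599. The muscle isozymes went the opposite way. Eno3, the muscle-type enolase gene, measured 27.9 and 24.5 CPM against 51.4 and 50.6 (log2 fold change -0.96 ± 0.10, edgeR adjusted p-value 0.000219). Pgam2, the muscle phosphoglycerate mutase gene, had 49 and 51 counts against 107 and 114 (edgeR adjusted p-value 0.0358, lost when any single library was left out, at 0.0757 to 0.138). The muscle precursor markers were lower in the same libraries, at sums of 2.35 to 4.17 CPM against 142 to 143, and their part in the Eno3 and Pgam2 differences was not tested. Bpgm, the bisphosphoglycerate mutase of red cells, measured 50.4 and 64.1 CPM against 42.4 and 37.8 (edgeR adjusted p-value 0.0178; 0.115 without anterior replicate 2).

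Pkm was the member with most counts over the 4 libraries together, and Ldha the member with the smallest p-value. In both central libraries Gapdh had more counts than Pkm (53095 and 56650 against 50353 and 55152). Pkm encodes muscle-type pyruvate kinase, including the M2 form found in embryonic cells. It measured 2197 and 2149 CPM in anterior cells and 1635 and 1704 in central cells. The log2 fold change was 0.38 ± 0.06 (SE), at an edgeR adjusted p-value of 0.00261. The counts are per gene, so the splice forms of Pkm were not separated. Pklr, the pyruvate kinase gene of liver and red cells, was counted 100 and 294 times in anterior cells and 2 and 0 times in central cells. The ratio was 199, with a 95% counting interval of 54.6 to 1645 that treats each count as independent and may be too narrow. The blood markers followed the same order, at 3294 and 8400 CPM in the anterior libraries, and their part in the Pklr and Bpgm differences was not tested. The sum over the 10 glycolysis genes was 7923 CPM in the anterior library with the lower blood sum and 7779 in the other. With the blood list and the ribosomal RNA precursor Rn45s removed before scaling, which leaves the counts of the 10 genes as they are, the same 5 genes were called. What red cells contribute to the counts of the 10 genes was not tested.

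Ldha, whose product favours the conversion of pyruvate to lactate, measured 1105 and 1054 CPM in anterior cells and 691 and 676 in central cells. The means were 1080 ± 35.5 and 683 ± 10.6 CPM (SD, n = 2 each), and the log2 fold change was 0.66 ± 0.06 (SE), at an edgeR adjusted p-value of 0.000137. Ldhb encodes the heart-type subunit, which is associated with the reverse reaction, and moved in the opposite direction at 185 and 182 CPM against 280 and 254. Its log2 fold change was -0.54 ± 0.07 (SE), at an edgeR adjusted p-value of 0.000769. Ldha therefore took 85.6% (95% exact binomial interval 85.3 to 86.0) and 85.3% (84.9 to 85.7) of the joint counts in anterior cells, against 71.2% (70.7 to 71.7) and 72.6% (72.1 to 73.1) in central cells. The gap between the populations was wider than that between the libraries of either, with an exact permutation p of 0.333, two-sided, again the smallest that this design allows. Over the 23 other glycolytic enzyme genes listed, 20 were tested, 6 were called higher and 3 lower, and the median log2 fold change was 0.05. Of all tested genes, 10.7% were called higher and 12.3% lower. Without anterior replicate 2 the number called fell from 9 to 5.

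**Figure D2:**
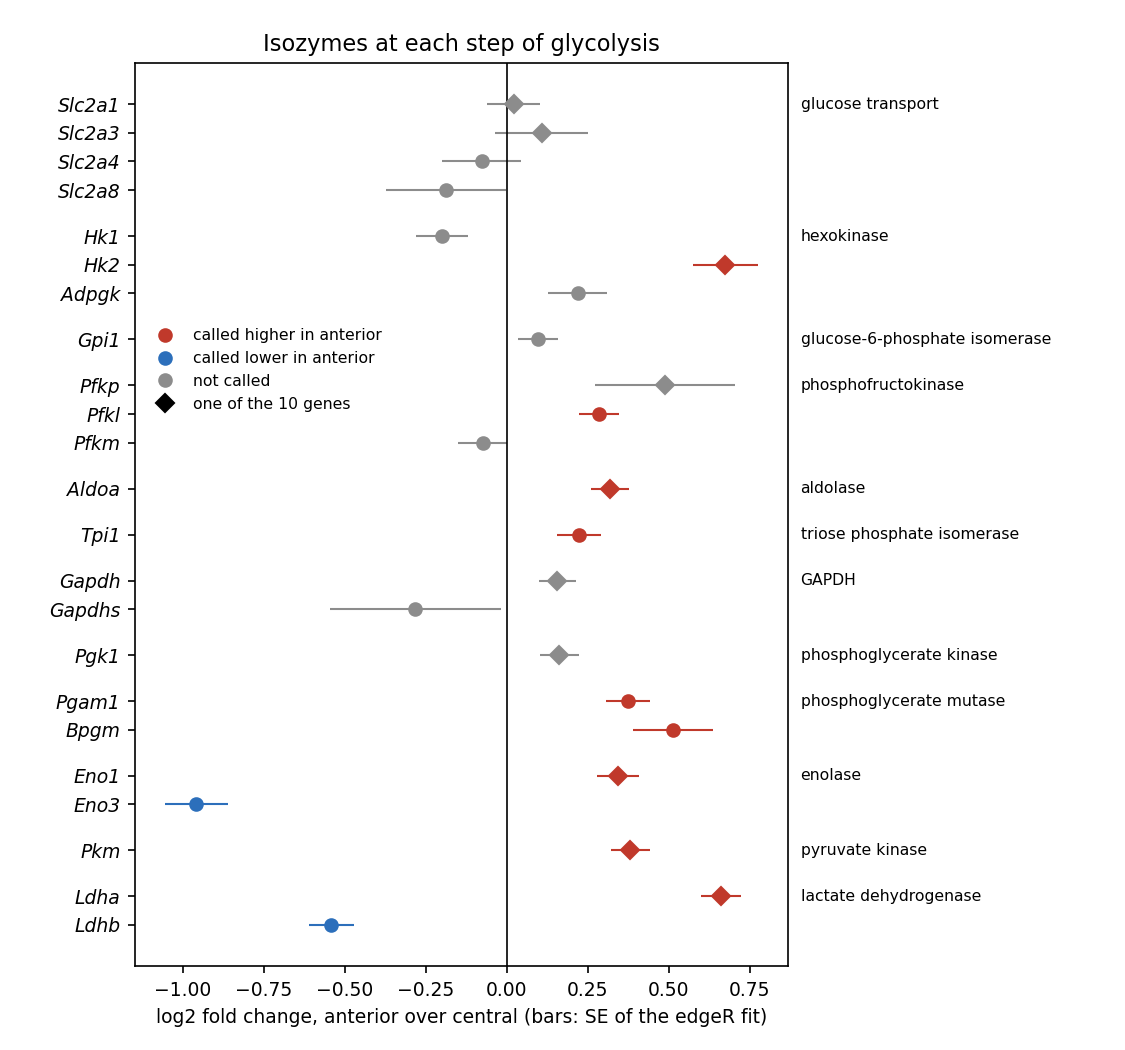
Log2 fold change of anterior over central cells (horizontal axis, points, with bars for the standard error of the edgeR fit) for the isozymes and transporters with a mean level of at least 5 CPM, ordered by step of the pathway. Diamonds are the 10 genes and circles other isozymes; Hk2, Aldoa, Eno1, Pkm and Ldha lie on the positive side, while Eno3 (-0.96) and Ldhb (-0.54) lie on the negative side.

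Levels of different genes were compared after division by exon length (CPM per kb). The length was that of the merged exons of all protein-coding transcripts under a gene's name in GENCODE M21. In anterior cells the order was Gapdh at 1295 CPM per kb, Pkm at 836, Ldha at 570, Eno1 at 525, Aldoa at 256, Pgk1 at 246, Slc2a1 at 22.9, Hk2 at 17.1, Slc2a3 at 11.2 and Pfkp at 1.61. Every neighbouring pair in that order was separated by more than the library values of each. In central cells Eno1 (414) stood above Ldha (361), and Pgk1 (220) above Aldoa (205), so both pairs changed places with these lengths. Merged exons came to 2565 bases for Aldoa and 2546 for Eno1, against 1549 and 2027 in the longest coding transcript. With the longest transcript as length, Aldoa would stand above Pgk1 and Eno1 above Ldha in both populations. Neither pair would then change places. Eno1 and Pgk1 may lose reads to copies elsewhere in the genome, as described below. Their places relative to Ldha and Aldoa are therefore uncertain in either population. Hk2 (10.7) and Slc2a3 (10.4) were the neighbours that could not be ordered in central cells, since their libraries overlapped. The transporter genes, Hk2 and Pfkp thus had far lower levels per length than the members from aldolase on.

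Within a step, the member was the main isozyme for aldolase, glyceraldehyde-3-phosphate dehydrogenase, enolase, pyruvate kinase and lactate dehydrogenase, but not for phosphorylation of glucose or of fructose-6-phosphate. Eno1 made up 96.7% of the enolase level per length in anterior cells and 92.3% in central cells. Ldha made up 80.2% and 63.7% of lactate dehydrogenase, and Pkm 99.7% of pyruvate kinase in anterior cells. Hk2 made up 30.7% of the hexokinase step in anterior cells and 23.2% in central cells, and Hk1 19.2% and 26.6%. Adpgk, the ADP-dependent glucokinase, was counted in that step and held 47.4% and 49.2% of it. In anterior cells it was the only gene of the step above Hk2. Pfkp held 1.63% and 1.32% of phosphofructokinase, and Pfkl 73.0% and 68.3%. Slc2a1 held 42.2% and 40.8% of the listed transporters.

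**Figure D3:**
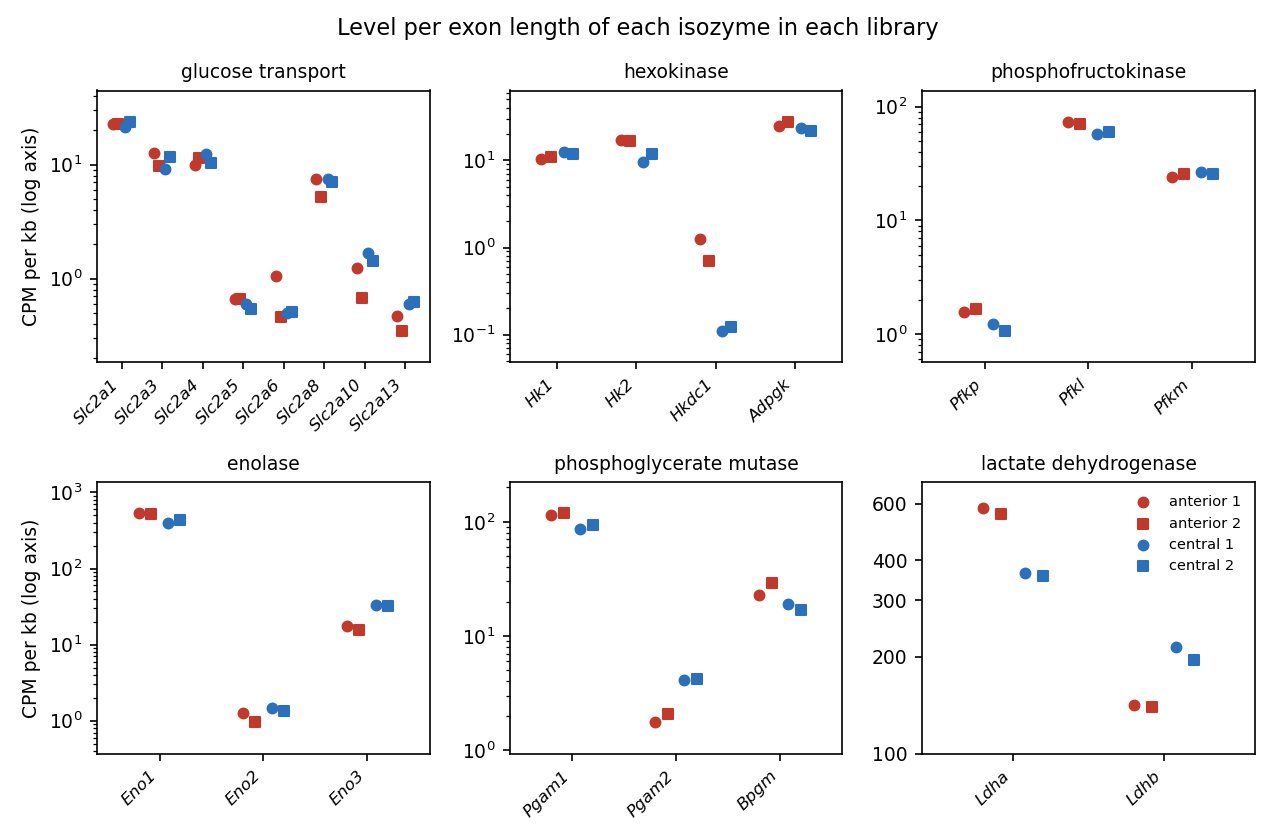
Level per exon length (vertical axis, CPM per kb, log scale) of the isozymes above 0.5 CPM per kb in either population at 6 steps, with 1 point for each library (red anterior, blue central; circles replicate 1, squares replicate 2). Ldha lies at 357 to 583 CPM per kb and is higher in the red points, Ldhb is higher in the blue points, and Pfkp lies far below Pfkl and Pfkm.

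Several of these genes have processed copies elsewhere in the genome, and a read that matches a copy as well may be dropped or assigned to the copy. How the authors' counting treated such reads is not given in the sources used here. Of all stretches of 100 bases in the longest coding transcript, 78.0% of those of Gapdh occurred exactly in transcripts of 86 other GENCODE M21 genes, 80 of them pseudogenes. The figure was 67.0% for Pgk1, with 3 pseudogenes, and 59.0% for Eno1, with 4 other genes. It was 9.82% for Pkm and 1.28% for Ldha, and for Hk2, Aldoa and Slc2a3 it was 0. The 16.0% of Pfkp came from the overlap with Pitrm1. Counts of Gapdh, Pgk1 and Eno1 are therefore uncertain in level, while Ldha, Hk2 and Aldoa shared little or no sequence of that length with a gene of another name. Transcripts under the same gene name were not compared, so the 0 of Aldoa does not cover its second GENCODE M21 entry. The transcripts are those of the C57BL/6J reference, whereas the embryos were FVB.

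The copy of Eno1 named Eno1b was itself a row of the table and took a sizeable number of counts. It had 6418 and 5882 counts in anterior cells and 4715 and 5372 in central cells, and 58.6% of the stretches of Eno1 occurred in it. Eno1b took 12.5% and 13.2% of the joint Eno1b and Eno1 counts in anterior cells, against 13.1% and 13.2% in central cells, so the share did not separate the populations (exact permutation test, two-sided, p = 0.667, n = 2 each). Its log2 fold change was 0.30 ± 0.07 (SE), at an edgeR adjusted p-value of 0.0140, and 0.120 without anterior replicate 2. Eno1 and Eno1b together measured 1542 and 1523 CPM in anterior cells and 1170 and 1257 in central cells, with no overlap. The aldolase retrocopies Aldoart1 and Aldoart2, also rows of the table, had at most 9 counts in any library.

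Promoter sequence of 9 of the 10 genes was examined because 5 of them were higher in the same population. RefSeq (GRCm38.p6) gave 15 windows of 250 bases upstream of a transcription start, with more than 1 for Aldoa, Eno1, Pkm and Ldha. The cores ACGTG and GCGTG, on either strand, are the letters recognised by hypoxia-inducible factors, and CACGTG is the E-box bound by the Myc family, each copy of which also holds ACGTG on both strands. At least 1 of ACGTG and GCGTG occurred in 13 of the 15 windows, and 38.6% of 32851 RefSeq windows of the same length held one. That share is over windows of any base composition, and both cores hold the letters CG, so the figures do not measure enrichment. The 15 windows are not independent, since windows 1 and 2 of Aldoa overlap and hold the same match, and windows 2 and 3 of Eno1 overlap and hold the same pair of matches. All 9 genes had a match in some window, a count over genes with up to 3 windows each that the share of single windows does not measure. ACGTG alone occurred in 16.6% and GCGTG in 28.2% of all windows, and CACGTG in 6.02%. CACGTG was found in 1 of the 15 windows, upstream of Ldha, where it occurred at 145 and at 48 bases before the start, followed by CACGT at 34 bases. A match is a description of letters and not a binding site. The windows of Ldha and Hk2 are shown because these genes had the largest folds, and that of Pgk1 because it holds as many ACGTG cores as the Hk2 window but Pgk1 was not called. Each is printed 5′ to 3′ on the strand of its gene, with the matches in capitals, for Ldha at chr7:46845554-46845803 (plus strand), Hk2 at chr6:82774455-82774704 (minus strand) and Pgk1 at chrX:106186850-106187099 (plus strand).
Ldha: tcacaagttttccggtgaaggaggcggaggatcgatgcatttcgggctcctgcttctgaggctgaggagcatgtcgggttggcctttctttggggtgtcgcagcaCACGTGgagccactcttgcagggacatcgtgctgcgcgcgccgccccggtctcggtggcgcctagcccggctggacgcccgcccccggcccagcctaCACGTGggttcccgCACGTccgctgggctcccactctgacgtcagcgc
Hk2: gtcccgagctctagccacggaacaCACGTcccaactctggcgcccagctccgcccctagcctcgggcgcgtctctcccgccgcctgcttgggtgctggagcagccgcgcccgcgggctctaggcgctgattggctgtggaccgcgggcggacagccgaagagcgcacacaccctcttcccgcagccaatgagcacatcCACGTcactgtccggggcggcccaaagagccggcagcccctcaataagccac
Pgk1: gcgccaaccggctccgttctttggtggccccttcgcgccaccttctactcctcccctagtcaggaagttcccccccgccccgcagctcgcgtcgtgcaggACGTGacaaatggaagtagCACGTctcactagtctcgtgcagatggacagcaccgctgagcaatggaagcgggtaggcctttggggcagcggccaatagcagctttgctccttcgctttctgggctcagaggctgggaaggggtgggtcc
In the Hk2 window the matches began 226 and 52 bases before the start, and in the Pgk1 window 150 and 131 bases before it.

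Among genes that steer flux through the pathway, 2 of 7 tested were lower in anterior cells. Higher were 0 by edgeR, DESeq2 or limma-voom, with 1 higher at an unadjusted p-value under 0.05. Of all tested genes, 22.9% were called in either direction. Pfkfb3, whose product makes the activator of phosphofructokinase, measured 38.7 ± 2.38 CPM in anterior and 32.7 ± 1.92 in central cells (SD, n = 2 each) and missed the threshold (edgeR adjusted p-value 0.109). Txnip, whose product promotes removal of GLUT1 from the cell surface, measured 14.5 and 19.1 CPM against 22.3 and 32.0. Its log2 fold change was -0.70 ± 0.19 (SE), at an edgeR adjusted p-value of 0.0313, and the call was lost without anterior replicate 1 (0.0963) or central replicate 2 (0.108). Fbp2, the muscle fructose bisphosphatase gene, which was picked after its values were seen, was counted 0 times in anterior cells against 16 and 12 times in central cells, so it was at least 4.63-fold lower against a floor of 3 counts per library. That call was lost without either anterior library (0.0719 and 0.0714). The median of the list was 0.09.

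The lactate exporter gene Slc16a3 rose together with Ldha. Slc16a3 encodes MCT4, the carrier of cells that release lactate, and measured 77.1 and 81.7 CPM in anterior cells and 42.6 and 42.9 in central cells. Its log2 fold change was 0.89 ± 0.08 (SE), at an edgeR adjusted p-value of 0.000104. Slc16a1, which encodes MCT1, measured 97.1 and 95.1 CPM against 80.3 and 88.8 and was not called (0.127; 0.0309 without central replicate 2). Of the 8 genes of lactate and pyruvate transport, 2 were called, both higher, against 22.9% of all tested genes called in either direction. The median log2 fold change was 0.03. The other one called was Emb, an accessory protein of these carriers, at 78.0 and 112 CPM against 47.7 and 62.0, a gene named after its values were seen; the DESeq2 Wald test did not call it (adjusted p-value 0.0571).

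Entry of pyruvate into mitochondrial oxidation changed in some genes. Pdha1, on chromosome X, encodes the catalytic E1 subunit of pyruvate dehydrogenase and measured 95.0 and 98.5 CPM against 59.5 and 55.0 (log2 fold change 0.76 ± 0.08, edgeR adjusted p-value 0.000236). Pdk1, the hypoxia-responsive kinase that switches the complex off, had overlapping values (53.7 against 53.6 CPM on average, edgeR adjusted p-value 0.982). Pdk2, another such kinase, was lower at 14.2 against 20.0 CPM (edgeR adjusted p-value 0.0278), a call lost without anterior replicate 1, anterior replicate 2 or central replicate 1 (0.0719 to 0.119). Of 12 genes of this list 3 were higher and 1 lower, with a median of 0.05, against 22.9% of all tested genes called in either direction. The number called fell from 4 to 1 without anterior replicate 1 and to 2 without anterior replicate 2 or central replicate 1.

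Hypoxia-inducible factor targets outside glycolysis were described by the same fit. Of 15 tested, 0 were called higher by edgeR, 0 by DESeq2 and 0 by limma-voom, and 2 were higher at an unadjusted p-value under 0.05. Called lower were 3 of the 15, against 22.9% of all tested genes called in either direction. The log2 fold change was above 0 for 7 of the 15, with a median of -0.07. Ddit4, an inhibitor of mTORC1, measured 49.3 and 41.8 CPM in anterior cells and 87.1 and 79.5 in central cells (log2 fold change -0.87 ± 0.10, edgeR adjusted p-value 0.000445). Vegfa, the vascular growth factor gene, measured 78.1 and 70.3 CPM against 90.3 and 95.0 (edgeR adjusted p-value 0.0220). The other, Ndrg1, was named after its values were seen, and without anterior replicate 2 neither it (0.0608) nor Vegfa (0.209) was called. Hif1a itself measured 214 and 227 CPM against 224 and 226, with no separation (edgeR adjusted p-value 0.787).

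The Myc family differed strongly and in opposite directions. Myc proteins are transcription factors whose known targets include Ldha, Hk2 and other glycolysis genes. Their part in the differences of the 10 genes was not tested. Mycn measured 201 and 196 CPM in anterior cells and 90.1 and 88.6 in central cells. The log2 fold change was 1.15 ± 0.06 (SE), at an edgeR adjusted p-value of 7.63e-06. Myc measured 9.62 and 7.02 CPM against 29.6 and 29.6, and its log2 fold change was -1.83 ± 0.16 (SE), at an edgeR adjusted p-value of 9.69e-05. Mycn took 95.4% and 96.5% of the joint counts of the pair in anterior cells and 75.3% and 74.9% in central cells. Of 13 regulators listed, 1 was higher and 2 lower, against 22.9% of all tested genes called in either direction, and the median was -0.03. The third called was Mycl (edgeR adjusted p-value 0.0189), named after its values were seen. Its log2 fold change was -0.40, and -0.29 without anterior replicate 2, where the call did not hold.

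**Figure D4:**
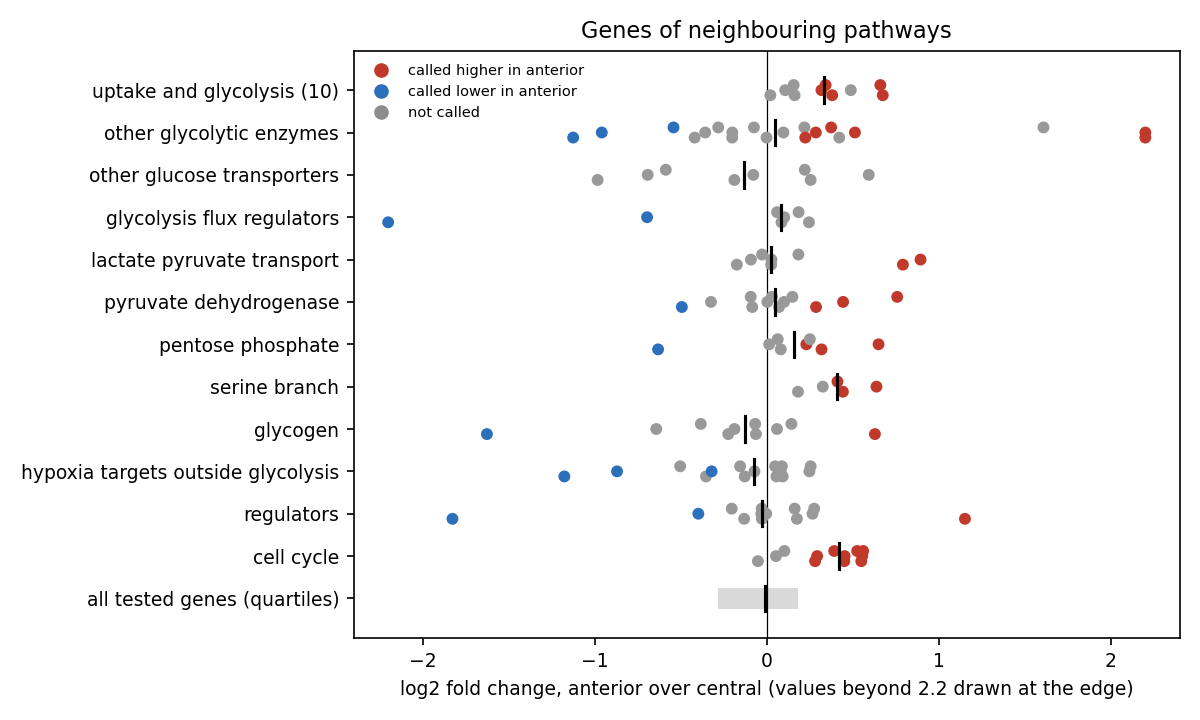
Log2 fold change of anterior over central cells (horizontal axis, values beyond the axis drawn at its edge) for the tested genes of each list, with 1 point per gene coloured by its edgeR call and a black bar at the list median; the grey bar spans the middle quartiles of all tested genes. The 10 genes of uptake and glycolysis have their median at 0.33 and the hypoxia targets outside glycolysis at -0.07.

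Most of the cell cycle markers checked were also higher in anterior cells. Of 12 such markers, 9 were called higher, against 10.7% of all tested genes, with a median log2 fold change of 0.42. The replication genes Mcm2 (0.10), Mcm5 (0.05) and Mcm6 (-0.05) were not called. Their summed level was 4395 and 4422 CPM in anterior cells and 3436 and 3573 in central cells, and the 10 glycolysis genes summed to 7923 and 7779 against 6154 and 6347. Marker genes of dissociation stress summed to 562 to 585 CPM in anterior cells and 644 to 824 in central cells. Of these 10 markers 1 was called higher and 2 lower, against 22.9% of all tested genes called in either direction. The number of stress genes called rose from 3 to 6 without central replicate 1 or with the replicate block, and to 5 without the filter on low counts. The part of these differences in the result for the 10 genes was not tested.

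**Figure D5:**
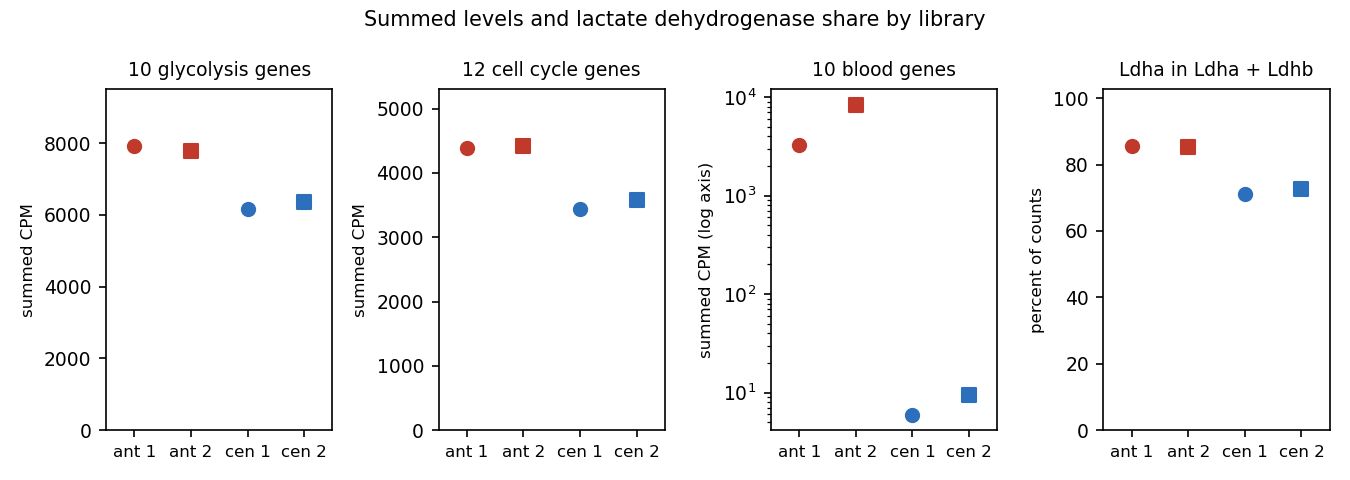
Summed level in each library (CPM) of the 10 glycolysis genes, of 12 cell cycle genes and of 10 blood genes (log axis), and the share of Ldha in the joint Ldha and Ldhb counts (percent). Anterior libraries are red and central ones blue; the blood sum differs between the anterior libraries (3294 and 8400 CPM) while the sum of the glycolysis genes is 7923 and 7779 CPM.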

How the data were processed

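Total RNA of 4 libraries of sorted cells was sequenced in read pairs. The authors deposited whole-number counts per gene symbol, not normalized. The submitters' processing notes name STAR 2.7.9a, HTSeq, DESeq2 and the mouse build mm10. The annotation, the strand setting and the treatment of reads with several matches are not given in the sources used here. Groups and replicate numbers came from the sample titles. Counts were fitted in R 4.3.3 with edgeR 4.0.16 (TMM scaling, filterByExpr, quasi-likelihood F test, Benjamini-Hochberg adjustment over 14610 genes, threshold 0.05, 2 residual degrees of freedom), and the pipeline was tested on simulated data. The standard error is the absolute log2 fold change divided by the square root of F. The members and gene lists were chosen with earlier results of these data known. Named genes were the members, the tested isozymes and transporters of their steps, copies of the members, 9 fixed genes (Hif1a, Epas1, Myc, Mycn, Slc16a1, Slc16a3, Pdk1, Pfkfb3 and Vegfa), the called gene with the largest rise and fall in each other pathway list at a mean of at least 5 CPM, and the 3 genes nearest to the member with the largest change; exceptions are stated. Alternatives used DESeq2 1.42.0, limma-voom (limma 3.58.1), other scalings and filters, the replicate block, halved counts, removal of blood genes and Rn45s, and omission of each library. Even numbers made up 72.8% to 75.6% of counts from 1 to 10, which led to the halved counts. A floor of 3 counts was 0.0899 to 0.102 CPM. Positions are from GENCODE M21.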

Additional observations from a re-analysis of the deposited data

How the results depend on the processing

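Of the 10 genes, 5 were called under 12 of the 14 alternatives, and 6 with the DESeq2 Wald test, which added Gapdh (log2 fold change 0.16), and without central replicate 2, which added Pgk1 (0.15 to 0.18 over the omissions). The number of all genes called was 2957 to 3864 over the 10 processing alternatives, and 2009 to 3697 when a library was left out, with the lowest number without anterior replicate 2. With the replicate block, 3586 genes and 5 of the 10 were called; same-numbered libraries did not deviate together over all tested genes (r = 0.046, Spearman 0.031), so the numbers were not taken to pair the libraries. Log2 fold changes of 10 named genes, none of them called, changed sign. That of Slc2a1 was -0.0097 with library size alone, -0.016 with upper-quartile factors and -0.055 to 0.106 over the omissions, and that of Slc2a3 was -0.078 to 0.285. Pdk1 was at -0.027, -0.034 and -0.011 with library size alone, upper-quartile factors and a mean count of at least 50, and at -0.058 to 0.071 over the omissions. Aldoc was at 0.0018 with DESeq2 size factors, 0.0017 with the DESeq2 Wald test, 0.0018 with limma-voom, 0.0043 without the filter, 2.94e-05 without blood genes and Rn45s, and -0.048 to 0.052 over the omissions. The ranges over the omissions were -0.195 to 0.053 for Slc2a4, -0.119 to 1.07 for Slc2a6, -0.474 to 0.055 for Slc2a8, -1.06 to 0.72 for Eno4, -0.83 to 1.11 for Ldhd and -0.068 to 0.017 for Hif1a. The cause was not tested in any of these. Of 71 named genes, 63 had the same direction and the same call under the 10 processing alternatives, and 39 under all 14. When a library was left out, the lone library was assumed to vary like the other group. With 2 libraries a group and Pfkp at 149 to 224 counts, a change of the size of its fold was not called at this depth.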

Other observations

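Side branches of glycolysis were described by the same fit, in which 10.7% of all tested genes were called higher and 12.3% lower in anterior cells. In the serine branch, which leaves the pathway at 3-phosphoglycerate, 3 of 5 genes were higher in anterior cells, with a median log2 fold change of 0.41. Psat1, the phosphoserine aminotransferase gene, measured 162 and 157 CPM in anterior cells and 99.5 and 105 in central cells at a log2 fold change of 0.64 ± 0.07 (SE, edgeR adjusted p-value 0.000274). The others called were the serine hydroxymethyltransferase genes Shmt1 (0.41) and Shmt2 (0.44), named after their values were seen, and these 3 calls held under all 14 alternatives. In the pentose phosphate pathway 3 of 8 genes were higher and 1 lower, with a median of 0.16, and the number called was 1 without anterior replicate 2 and 2 without anterior replicate 1. Rpia, the ribose-5-phosphate isomerase gene, measured 31.0 and 27.7 CPM against 21.4 and 16.1 (0.65 ± 0.15 in log2, edgeR adjusted p-value 0.0140). H6pd, which encodes the enzyme of the endoplasmic reticulum, was lower at 11.6 against 17.9 CPM (edgeR adjusted p-value 0.0177; 0.107 without anterior replicate 2). Of 10 glycogen genes 1 was higher and 1 lower, a share below the 22.9% of all tested genes called, with a median of -0.13; without central replicate 1 the number called was 4. Gbe1, the branching enzyme gene, measured 27.8 against 18.0 CPM (0.63 ± 0.12 in log2, edgeR adjusted p-value 0.00578), and Pygl, the liver glycogen phosphorylase gene, chosen after its values were seen, measured 1.88 against 5.82 CPM (-1.63 ± 0.27).

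The tested genes whose levels over the 4 libraries were most like those of Hk2, by the Euclidean distance of centred log2 CPM among genes with a mean of at least 5 CPM, were Naaladl1 (distance 0.033), Ptpn13 (0.067) and Pon2 (0.067). Ptpn13 measured 73.8 and 76.7 CPM in anterior cells and 42.0 and 52.5 in central cells. Naaladl1 measured 6.72 and 6.44 CPM against 3.77 and 4.54, and Pon2 measured 14.1 and 14.1 against 7.60 and 9.30.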
